A study of Rattus norvegicus with 6 samples.

Results

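Crypt-like enterocyte nuclei were chosen from single nucleus RNA sequencing of rat colon by the unique transcript counts (UMIs) of 18 genes. A nucleus counted as crypt-like when its UMIs over 9 crypt genes (Lgr5, Smoc2, Axin2, Ephb2, Ephb3, Sox9, Lrig1, Cd44 and Cftr) summed to 2 or more and exceeded its sum over 6 surface genes (Slc26a3, Krt20, Clca4, Aqp8, Slc9a3 and Cdhr5), and when it held 0 UMIs of the cycling genes Mki67, Top2a and Kif11. Of 8782 enterocyte nuclei, 302 met the rule, out of 9800 enterocyte and T cell nuclei in the series. The mirror of the rule, a surface sum of 2 or more above the crypt sum without cycling genes, gave 6944 surface-like nuclei. Another 355 nuclei held at least 1 UMI of a cycling gene, and 1181 fell in neither class.

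The tissue came from male wildtype Wistar rats, with 3 rats in each of 3 treatments. In the placebo and PL8177 groups the drinking water held 5% dextran sulfate sodium (DSS), an agent that injures the colon epithelium, from day 1 to day 3. These rats then received by gavage a placebo capsule or a capsule with 50 µg of PL8177, an agonist of the melanocortin-1 receptor, 2 times a day, 6 h apart, from day 4 to day 7, and colon was taken on day 8. Sham rats drank water only. The submitters provided 1 enterocyte sample per treatment, and the rats (GR12, GR13 and GR15 in sham, GR22, GR23 and GR24 in placebo, GR41, GR43 and GR44 in PL8177) were read from the tags in the nucleus names. Age and sequencing batch were not given in the sources used here.

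The colon epithelium renews from stem cells at the crypt base, whose daughters divide, move up the crypt and mature into absorptive cells at the surface. Wnt signals and the Eph receptors they induce mark the lower crypt, whereas BMP signals and ion-absorbing transporters mark the upper crypt and surface. Chloride and bicarbonate secretion through the Cftr channel is a known activity of crypt cells, and it is driven by cyclic AMP (cAMP), which melanocortin receptors also raise.

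The crypt sum of the 302 nuclei was made largely of Cftr, the cAMP-gated chloride channel, and Ephb2, a Wnt-induced receptor that positions crypt cells. These counts chose the nuclei and are given as a description. Cftr supplied 675 of 1048 crypt UMIs (64.4%) and was seen in 255 nuclei, and Ephb2 supplied 270 UMIs (25.8%) in 166 nuclei. The stem cell receptor Lgr5 supplied 4 UMIs, the stem cell niche gene Smoc2 supplied 6, the Wnt target Axin2 supplied 26 and the transcription factor Sox9 supplied 17. The receptor Ephb3, the adhesion molecule Cd44 and the ErbB inhibitor Lrig1 supplied 9, 8 and 33 UMIs. In 190 nuclei (62.9%) the rule would not have been met without Cftr, namely 20 of 48 sham, 136 of 192 placebo and 34 of 62 PL8177 nuclei.

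Most nuclei lay close to the threshold. The crypt sum was exactly 2 in 125 nuclei, 3 in 84, and 4 or more in 93, with a maximum of 17. The surface sum was 0 in 106 nuclei, 1 in 131 and 2 or more in 65. Just outside the rule, 79 nuclei had a crypt sum of 2 or more that equalled the surface sum, 519 had one below the surface sum, and 176 had a crypt sum of 1 above the surface sum. A further 18 were set aside only for a cycling gene.

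Crypt-like nuclei were of moderate depth. Their median was 974.5 UMIs, against 1319.5 in surface-like, 1754 in cycling and 450 in unclassified nuclei. Few rats supplied most of the material. GR12 held 43 of 48 sham nuclei and 97.2% of sham crypt-like UMIs (80370), whereas GR13 held 1 nucleus of 257 UMIs and GR15 held 4 nuclei with 2088 UMIs. GR43 held 47 of 62 PL8177 nuclei and 81.2% of their UMIs. The placebo nuclei were spread over GR22 (92), GR23 (23) and GR24 (77). Profiles of crypt-like nuclei under sham or PL8177 were therefore close to those of single rats.

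**Figure D1:**
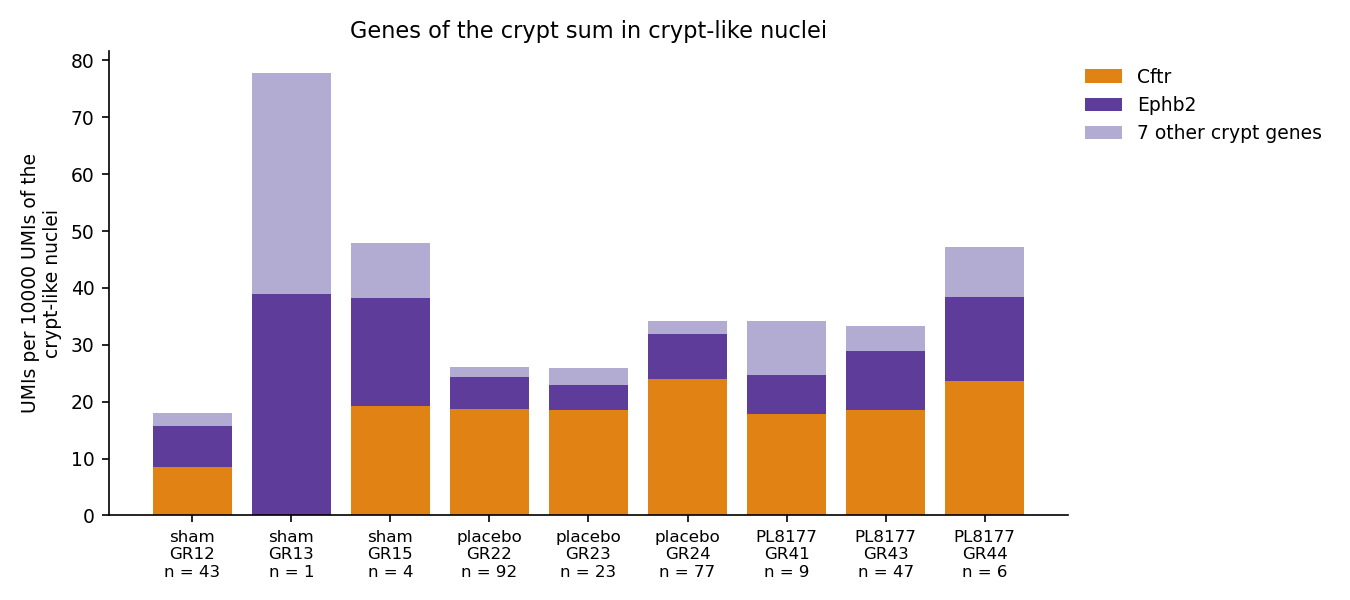
UMIs of the crypt genes per 10000 UMIs of the crypt-like nuclei (y axis) in each rat (x axis, with n as the number of crypt-like nuclei), stacked as Cftr, Ephb2 and the 7 other genes of the crypt sum. Cftr was at 8.46 per 10000 in GR12 and between 18.6 and 24.1 per 10000 in the placebo rats, and the bar of GR13 stands for 1 nucleus.

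The name crypt-like was checked against markers that the rule did not use, and the result was mixed. Of 14 further crypt markers, 12 were matched and 6 were abundant enough to test between crypt-like and surface-like nuclei. Myb, a transcription factor of crypt progenitors, Kcnq1, a basolateral potassium channel, and Slc12a2, the chloride-loading cotransporter, were higher in crypt-like nuclei, and Prom1 was lower. Unclassified nuclei had similar levels, with Myb at 2.20 against 2.96 UMIs per 10000 in crypt-like nuclei, Kcnq1 at 5.35 against 7.82, and Slc12a2 above them at 2.09 against 1.33. The stem and progenitor genes Ascl2, Olfm4, Tcf7 and Tnfrsf19 were at 0 UMIs in all 302 nuclei. The summed level of the markers was 18.1 UMIs per 10000 in crypt-like and 18.2 in surface-like nuclei, with Prom1 supplying most of the latter. Of 10 listed markers, all 8 testable markers of mature colonocytes (Car1, Car2, Car4, Muc13, Ceacam1, Vil1, Cdhr2 and Tmigd1) were lower with TMM factors, 7 with relative log expression factors and 6 in DESeq2, and their list summed to 31.5 per 10000 against 94.0. Car2, a carbonic anhydrase, was at 17.8 per 10000 in crypt-like and 16.4 in surface-like nuclei. Its log2 fold change was above 0 with both other normalizations, though below the median of all genes under each. The nuclei are thus called crypt-like by the rule alone, as nuclei with Cftr or Ephb2 and little surface transcript, and not as stem cells.

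T cell nuclei of the same rats gave the background of the rule in cells of which Cftr and Ephb2 are not markers. The rule was met by 17 of 120 sham (14.2%), 9 of 96 PL8177 (9.38%) and, without GR23, 11 of 117 placebo T cell nuclei (9.40%), at median depths of 1172, 678 and 617 UMIs. It was met by 4 of 685 T cell nuclei of GR23 (0.584%), the rat that held most of the placebo T cell nuclei. The paper lists the surface genes Slc26a3, Slc9a3 and Krt20 as lower in sham and PL8177 than in placebo T cells. Such transcripts keep a nucleus out of the rule. The T cell share varied widely between rats, from 0 of 26 nuclei in GR22 and 0 of 19 in GR13 to 16 of 74 (21.6%) in GR12. In enterocytes the shares were lower, at 1.95%, 1.85% and 6.49% of nuclei at median depths of 730, 1279 and 1244 UMIs, though enterocytes also carry the surface transcripts that keep a nucleus out. Pooled by treatment and outside GR23, the share of crypt-like nuclei was thus below this background, whereas in GR23, and in GR22 and GR13 with their 26 and 19 T cell nuclei, it was above. For placebo the pooled reading rests on leaving out GR23, since with GR23 the enterocyte share was above that of T cell nuclei. The share is read below as a count under the rule and not as a share of crypt cells. Cftr was detected in 20.8% of the sham T cell nuclei, 14.6% of the PL8177 ones and 15.4% of the placebo ones without GR23. Among enterocytes, with GR23 included, it was detected in 6.21%, 10.9% and 24.9% in that order. Detection of Cftr in sham and PL8177 enterocytes thus did not exceed this background.

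Within crypt-like nuclei the level of Cftr was 17.5 UMIs per 10000, against 4.89 per 10000 in the 37 T cell nuclei that met the rule outside GR23. Cftr is a gene of the rule, and the median depths of these groups were 974.5 and 2186 UMIs. A fixed threshold in UMIs weighs more per 10000 in shallower nuclei, so that the levels of Cftr are a description only. The T and B cell markers were at 0.598 per 10000 in the crypt-like enterocyte nuclei and at 53.9 per 10000 in those 37 T cell nuclei. Slc4a4, a sodium bicarbonate cotransporter outside the rule, was at 16.7 and 7.50 per 10000 in these groups. The crypt markers Myb (2.96 and 2.50) and Kcnq1 (7.82 and 5.23) were closer. How far free RNA contributed to the crypt-like class was not tested.

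The share of crypt-like nuclei was higher under placebo than in either other treatment in all rats. It was 6.83%, 7.57% and 5.89% of enterocyte nuclei in placebo rats GR22, GR23 and GR24. Sham rats had 4.63% in GR12, 0.121% in GR13 and 0.565% in GR15. Shares under PL8177 were 0.886% in GR41, 3.07% in GR43 and 0.739% in GR44. The placebo rats were thus the 3 highest, with GR12 next and GR43 after it.

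The mean was 6.76% ± 0.842 (SD, n = 3 rats) under placebo, 1.77% ± 2.48 under sham and 1.56% ± 1.31 under PL8177. The difference from placebo was -4.99 percentage points for sham and -5.20 for PL8177, each with an exact two-sided permutation p of 0.1, which is the smallest that 3 against 3 rats can give. PL8177 minus sham was -0.207 points (exact permutation p = 1), less than the spread between rats. Pooled over nuclei the shares were 6.49% (95% Clopper-Pearson interval 5.63 to 7.44), 1.95% (1.44 to 2.57) and 1.85% (1.42 to 2.36), intervals that cover counting error only.

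These differences depended on Cftr and on the surface condition of the rule. With Cftr left out of the crypt sum the mean shares were 1.53% under placebo, 0.971% under sham and 0.649% under PL8177, the groups overlapped, and the differences from placebo were -0.563 points for sham (exact permutation p = 0.5) and -0.886 for PL8177 (p = 0.2). With every nucleus also thinned to 500 UMIs they were -0.00263 and -0.0649 points. Thinning alone left the placebo rats above all others, at 3.74% ± 0.466 against 0.725% ± 0.835 and 1.19% ± 1.04, with 489 placebo, 850 sham and 662 PL8177 nuclei left out as too shallow. When a crypt sum of 3 or more was required, GR12 at 3.12% lay above GR24 at 2.83%. Without the surface condition the groups also overlapped, with GR12 at 16.7% and GR43 at 13.1% above GR23 at 12.5% and GR24 at 9.40%. No crypt gene other than Cftr was left out for comparison.

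**Figure D2:**
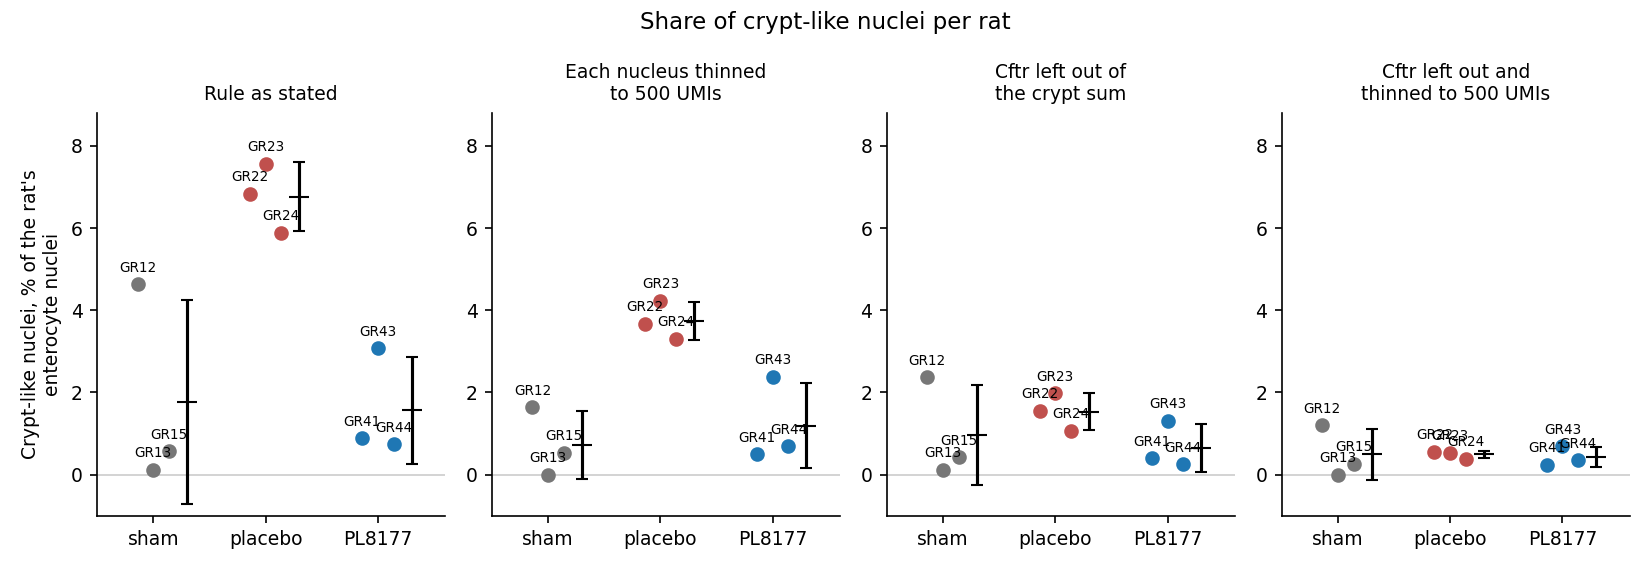
Share of crypt-like nuclei among the enterocyte nuclei of each rat (y axis, percent) by treatment, for the rule as stated, after thinning each nucleus to 500 UMIs, with Cftr left out of the crypt sum, and with both. Points are rats and bars are the mean ± SD of 3 rats. Under the rule as stated the placebo rats lie between 5.89% and 7.57%, above all others, whereas with Cftr left out the groups overlap.

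Across all enterocyte nuclei of a rat, Cftr was at 2.14, 3.32 and 2.02 UMIs per 10000 in the placebo rats. The sham rats had 0.581, 0.379 and 0.404, the PL8177 rats had 0.554, 1.01 and 0.546, and placebo did not overlap with either. The other 8 crypt genes together lay between 1.41 and 2.32 per 10000 under placebo, between 1.54 and 1.86 under sham, and between 1.07 and 1.78 under PL8177, and overlapped. The surface genes, which also enter the rule, summed to 160, 109 and 110 per 10000 in the placebo rats. The sham rats had 145, 271 and 139 and the PL8177 rats 167, 167 and 191. In this sum the placebo rats lay below the PL8177 rats and overlapped with the sham rats. In such sums, more nuclei with Cftr and more Cftr per nucleus cannot be told apart. In surface-like nuclei pooled over rats, Cftr was at 1.11 per 10000 under placebo, 0.335 under sham and 0.448 under PL8177, without a test. The higher level of Cftr under placebo was thus not confined to crypt-like nuclei. Within crypt-like nuclei, Cftr was at 8.46 per 10000 in GR12, 18.7, 18.6 and 24.1 in the placebo rats and 18.6 in GR43.

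Genes outside the rule differed widely between crypt-like and surface-like nuclei. Single genes of chloride and bicarbonate secretion such as Slc4a4 and Kcnq1, Notch receptors and a few cell cycle genes were higher in crypt-like nuclei, although with TMM factors more of the tested secretion genes were lower than higher. The summed lists of mature colonocyte, BMP, interferon and wound response genes were at lower levels. Both classes were picked by counts in the same nuclei, so the fit describes them and is not a test of separately defined cell types. Summed per rat and class in 9 rats, with rat as a block, 5906 genes were tested with edgeR's quasi-likelihood test. At a Benjamini-Hochberg adjusted p below 0.05 and a log2 fold change beyond 0.5, 1185 genes were higher (20.1% of those tested) and 1788 lower (30.3%), 50.3% in all. These shares of all genes, 20.1% higher and 30.3% lower, are the background for the TMM counts of each list that follows. Genes low in crypt-like nuclei could pass the count filter through the far larger surface-like sums (14676074 against 384682 UMIs), so that counts of lower members describe the tested genes and support no direction of a whole list.

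The scale of these log2 fold changes depended on the normalization. Their median over all genes was -0.11 with TMM factors, 0.51 with relative log expression factors, which called 2645 genes higher and 1033 lower, and 0.59 in DESeq2 (2183 and 669). Among the 5 rats with at least 20 crypt-like nuclei (GR12, GR22, GR23, GR24 and GR43) the medians were 0.04 and 0.03 under the first 2 methods, with 1288 higher and 1450 lower under TMM. No gene called with TMM in 9 rats was called in the other direction under any alternative. The list medians that follow are from the TMM fit and are to be read against its median of all genes, -0.11. Counts under the other normalizations are given where their balance turned. They are to be read against the counts and medians of all genes under the same method.

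Under the rule for named genes, which asked for the same direction in every rat, GR13 with its 1 nucleus included, only 3 higher genes were eligible. They were Luc7l3, a splicing factor (log2 fold change 0.85), the bicarbonate cotransporter Slc4a7 (0.72) and the poly(A)-binding protein Pabpn1 (0.63). Of 583 eligible lower genes, the 12 named were Il1a, Cda, Ifit2, Nr1d1, Gbp2, Clec2e, Syne3, Slc30a10, Apoa1, Cemip, Pdzk1ip1 and Dusp1. GR13 and GR15, with 257 and 2088 crypt-like UMIs, can read 0 for such genes at their depth. The same direction in these rats is thus easily met for lower genes and adds no support. Of Il1a, the interleukin 1 alpha gene, and Cda, cytidine deaminase, no UMI was seen in the crypt-like nuclei of the 5 best covered rats, against 684 and 612 in their surface-like nuclei. Against 3 counts over those crypt-like nuclei, Il1a was at least 7.37-fold and Cda at least 6.59-fold lower. Clec2e, a lectin-like surface protein, had 2 UMIs in those crypt-like nuclei and 3987 in the surface-like ones.

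With the same direction required in the 5 best covered rats only, a choice made after the values were seen, the leading higher genes were led by Slc4a4 (log2 fold change 3.24, SE 0.229 in 9 rats). Slc4a4 was at 18.3 UMIs per 10000 in crypt-like nuclei of GR12, 21.8, 13.8 and 11.5 in the placebo rats and 9.08 in GR43, against 0.622, 2.01, 2.55, 0.536 and 1.03 in their surface-like nuclei. The other 11 were St6galnac1, a sialyltransferase, the cAMP phosphodiesterase Pde8b, the ribosome assembly factor Utp20, Myb, the calcium-activated potassium channel Kcnn4, the receptor phosphatase Ptprm, Ankrd26, the proline transporter Slc6a20, the chromatin protein Hmga2, the guidance molecule Sema5a and the scaffold Shank2. Their log2 fold changes in 9 rats ran from 2.45 for Shank2 to 3.21 for St6galnac1. For Ptprm, 39 of the 61 crypt-like UMIs came from GR23 alone. Hmga2 was at 2.24 in GR12, 2.65, 2.18 and 3.26 in the placebo rats and 2.59 in GR43, above every surface-like value of the same rats (0.229 to 0.692).

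**Figure D3:**
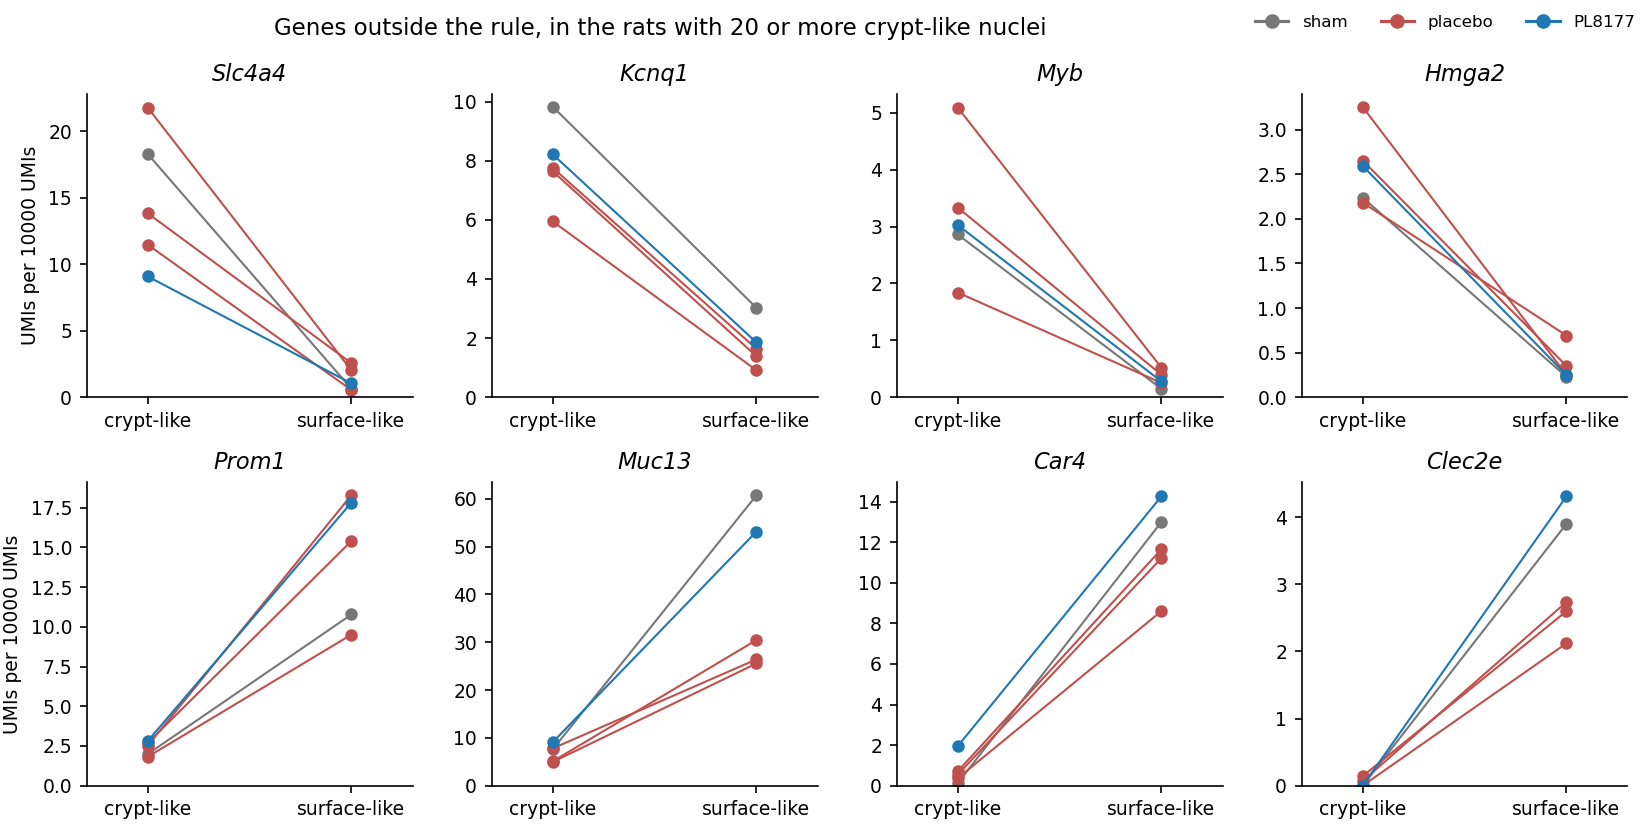
Levels of 8 genes outside the rule (y axes, UMIs per 10000 UMIs of the class) in crypt-like and surface-like nuclei of the 5 rats with at least 20 crypt-like nuclei. Each line is a rat, coloured by treatment. Slc4a4, Kcnq1, Myb and Hmga2 were higher and Prom1, Muc13, Car4 and Clec2e lower in the crypt-like nuclei of every rat shown.

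Chloride and bicarbonate secretion genes divided. Of 22 matched members, 15 were tested, 5 were higher and 9 lower, with a median log2 fold change of -0.67. With relative log expression factors 6 were higher and 6 lower (median 0.035, against 0.51 for all genes). In DESeq2 6 were higher and 5 lower (0.046 against 0.59). The list's median thus lay below that of all genes under both, as with TMM factors. The higher ones were Slc4a4, Kcne3, the beta subunit of Kcnq1 channels (3.32), Kcnn4 (2.84), Kcnq1 (1.54) and Slc12a2 (1.03). The lower ones included the sodium pump subunit Atp1b1 (-1.20), the uroguanylin-family ligand Guca2a (-3.23), the adenosine receptor Adora2b (-2.48) and the calcium-activated chloride channel Ano1 (-1.93). The basolateral loading and potassium channels around Cftr were thus higher, while Atp1b1 and Guca2a were lower. The guanylate cyclase receptor Gucy2c, called lower, had values above 0 with the other 2 normalizations, though below the medians of all genes there.

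Kcnq1 showed the pattern in every well covered rat, at 9.83 in GR12, 7.76, 7.64 and 5.95 in the placebo rats and 8.22 in GR43 per 10000 crypt-like UMIs. The surface-like nuclei of those rats lay between 0.909 and 3.02. Myb was at 2.86, 3.34, 5.09, 1.84 and 3.03 in the same rats, against 0.146 to 0.519 in surface-like nuclei. Neither gene's crypt-like values overlapped its surface-like values.

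Wnt and crypt base genes outside the rule showed no common direction. Of 13 tested members, 4 were higher (Myb 2.78, the repressor Tcf7l1 2.71, Nav1 1.94 and Kcnq1) and 6 lower (Prom1 -3.22, Tcf7l2 -1.81, beta-catenin Ctnnb1 -1.48, Apc -1.48, and the co-receptors Lrp5 -1.36 and Lrp6 -0.99). The Wnt-induced ligase Rnf43 (0.44, adjusted p = 0.0842) and the R-spondin receptor Lgr4 (0.10) did not pass. The list's median was 0.10. With relative log expression factors 7 were higher and 5 lower, and in DESeq2 7 and 4. Of the Eph and ephrin genes outside the rule, the receptor Ephb4 was higher (2.23) and Epha2 (-1.99), Efna1 (-1.47), Efnb1 (-1.38) and Efnb2 (-1.12) were lower, 4 of 5 tested.

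Of 10 tested Notch pathway genes, the receptors Notch1 (1.70), Notch2 (1.81) and Notch3 (2.01) and the ligand Jag1 (1.91) were higher and the protease Adam10 (-0.69) was lower, with a list median of 0.54. The effectors Rbpj (-0.11) and Hes1 (0.14) did not pass. In BMP and hedgehog signalling 1 of 13 was higher (the receptor Acvr2b, 1.01) and 8 were lower, among them the ligands Bmp2 (-4.10) and Ihh (-1.38), the target Id1 (-1.87) and the transducer Smad3 (-1.69), with a median of -0.98. In the ErbB pathway 5 of 8 were lower, including the receptors Egfr (-1.58) and Erbb3 (-1.96) and the ligand Areg with 2 UMIs in crypt-like nuclei, and the receptor regulator Lrig3 was higher (1.23).

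Genes of mature colonocytes summed to 110 UMIs per 10000 in crypt-like and 257 in surface-like nuclei. Of 31 tested, 26 were lower, 1 was higher (the peptidase Dpp4, 1.94), and the median was -1.92. The transcription factor Maf with 2 crypt-like UMIs, Plac8 (-4.75), the carbonic anhydrase Car4 (-4.64), the exporter Abcg2 (-4.00), the mucin Muc13 (-3.23) and the sodium channel subunit Scnn1a (-3.03) were among the lower. The gut identity factors Cdx1 and Cdx2 (-0.04 each) did not pass. Car2, Ush1c and Hnf4a, called lower with small values, had values above 0 with the other 2 normalizations. These values still lay below the medians of all genes there (0.51 and 0.59).

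Muc13 was at 7.59 per 10000 in crypt-like nuclei of GR12, 4.97, 5.09 and 7.79 in the placebo rats and 9.08 in GR43, against 60.7, 25.6, 30.4, 26.4 and 53.1 in their surface-like nuclei. Its crypt-like values lay below the surface-like values of every one of these rats.

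Lists of response genes of the injured mucosa, summed over all matched members, were at lower levels in crypt-like than in surface-like nuclei, at 11.2 against 25.4 UMIs per 10000 for injury regeneration, 12.1 against 33.6 for interferon response and 9.83 against 20.7 for TNF and NF-kB. No member of these lists was abundant enough to be tested within crypt-like nuclei alone, and those tested here could pass the filter through the surface-like sums, which favours genes that are high there. Of the injury regeneration list 10 of 12 tested were lower and 0 higher, including the laminin chain Lamb3 (-3.39) and the tight junction protein Cldn4 (-3.81), while Yap1 (-0.04) did not pass. Of 21 tested interferon response genes 15 were lower and 0 higher, with the transcription factor Irf1 (-2.29), Parp14 (-3.07) and the MHC class I light chain B2m (-3.47) among them. Ifit2 and Gbp2 were at 0 UMIs in crypt-like nuclei, at least 2.87-fold and 2.63-fold lower against 3 counts over the class. Of 12 tested TNF and NF-kB genes 8 were lower, such as Birc3 (-3.46) and Tnip1 (-2.46), and the kinase Ripk2 was higher (1.69). The list medians were -2.01, -1.79 (-1.52 with those genes at their bounds) and -1.23.

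The summed interferon list was at 8.34 to 30.6 UMIs per 10000 in the crypt-like nuclei of the 5 best covered rats and at 24.5 to 87.6 in their surface-like nuclei. GR23 was the highest in both classes.

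Of 51 matched cell cycle genes outside the rule only 8 were tested, of which 6 were higher and 0 lower in crypt-like nuclei. These were Smc2 (1.83), Ccnd2 (1.72), Cenpf (1.68), Pola1 (1.13), Ezh2 (0.91) and Ccnd1 (0.52), which act in chromosome condensation, G1 entry, mitosis, replication and chromatin silencing. Their list summed to 9.28 UMIs per 10000 in crypt-like, 4.51 in surface-like, 11.03 in cycling and 10.6 in unclassified nuclei. The absence of Mki67, Top2a and Kif11 UMIs at this depth does not exclude cycling nuclei from the class.

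In the melanocortin and cAMP list, which covers the pathway that PL8177 addresses, 4 of 11 tested were higher and 1 lower, against 20.1% and 30.3% of all genes. With relative log expression factors 8 were higher and 0 lower (median 0.81, against 0.51 for all genes). In DESeq2 6 were higher and 0 lower (0.97 against 0.59). Both methods also called more of all genes higher than lower. The phosphodiesterases Pde3b (2.002) and Pde4d (1.44) and the protein kinase A subunits Prkar2a (0.64) and Prkacb (0.62) were higher, and Creb1 (-0.76) was lower. These called members act in cAMP signalling in general, and none is a melanocortin receptor. The list summed to 28.1 per 10000 in crypt-like and 15.7 in surface-like nuclei. Its median was 0.23 with TMM factors, where that of all genes was -0.11.

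Markers of other cell types were at low levels in the class. Of goblet and deep crypt secretory genes, 6 were tested, of which Bcas1 (1.91) and Creb3l1 (0.90) were higher and Zg16 (-2.18) lower. The summed goblet list was at 5.85 per 10000 against 3.62 in surface-like and 7.03 in unclassified nuclei. Enteroendocrine, tuft and T or B cell markers had no testable member and summed to 0.390, 0.546 and 0.598 per 10000, against 0.623, 0.333 and 0.292 in surface-like nuclei. Myeloid markers summed to 0.286 against 0.881 and stromal markers to 1.59 against 1.31 per 10000. The myeloid gene Mrc1, with 3 crypt-like UMIs, was lower. Of 2 tested stromal genes Myh11 was lower (-0.86) with TMM factors, whereas 0 were lower under either other normalization and 1 was higher in DESeq2. Tuft, T or B cell and stromal markers thus summed to more in crypt-like than in surface-like nuclei, and their part in the results was not tested.

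Unclassified nuclei had list levels close to those of crypt-like nuclei. Mature colonocyte genes were at 110 UMIs per 10000 in crypt-like and 132 in unclassified nuclei, against 257 in surface-like and 225 in cycling nuclei. The interferon list was at 12.1 and 16.3 against 33.6 and 24.4, and the cAMP list at 28.1 and 24.8 against 15.7 and 19.4. The unclassified nuclei, with a median of 450 UMIs, had few counts of any rule gene, and their difference from crypt-like nuclei was not tested.

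Nuclei that entered through Cftr or through Ephb2 also had like levels. In the 127 nuclei with Cftr and no Ephb2 UMI, mature colonocyte genes were at 110.1 and chloride secretion genes at 63.1 per 10000. In the 38 nuclei with Ephb2 and no Cftr UMI they were at 121 and 76.96, and in the 128 with both at 107 and 67.6. The remaining 9 nuclei had neither gene.

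**Figure D4:**
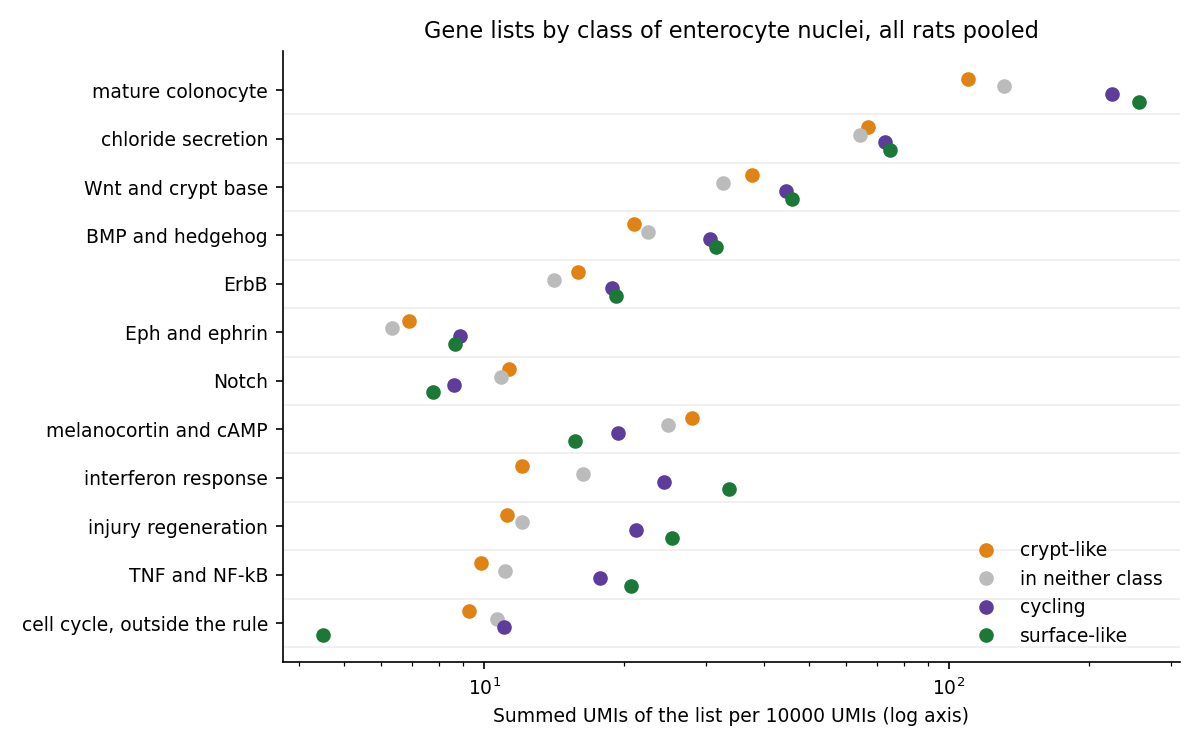
Summed UMIs of 12 gene lists per 10000 UMIs (x axis, log scale) in crypt-like, unclassified, cycling and surface-like enterocyte nuclei, all 9 rats pooled, without the genes of the rule. Crypt-like and unclassified nuclei lie near each other, as do cycling and surface-like nuclei, for most lists (mature colonocyte genes 110 and 132 against 225 and 257).

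Against cycling nuclei the contrast kept the same leading genes in part. In the 4 rats with at least 10 nuclei of each class, 513 of 3703 genes (13.9%) were higher in crypt-like nuclei and 759 (20.5%) lower, 34.4% in all (edgeR quasi-likelihood, adjusted p below 0.05). The 12 named higher genes were led by Pde8b (log2 fold change 2.30) and Slc4a4 (2.23), and held Mpp6, Sema5a, Slc2a13, Chst9, Acot7, Trpm3, Pitpnm3, Clybl, Ankh and Lrch1. The 12 lower ones were led by Clec2e and the transglutaminase Tgm3 (-4.54), and held Fos, Abcb4, Pdzk1ip1, Apobec1, Sgk1, Fbxo32, Slco2a1, Plac8, Pmp22 and St3gal3. Mature colonocyte genes were lower in 19 and higher in 2 of 30 tested, and the cycling nuclei themselves carried a surface sum of 131 UMIs per 10000 against 8.24 in the crypt-like nuclei.

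Between treatments, few genes of crypt-like nuclei could be tested. All 9 rats entered with their summed crypt-like counts, and 653 genes passed the count filter, rule genes included. In sham against placebo 0 genes were higher and 2 lower (0.306% of those tested). In PL8177 against sham 2 were higher (0.306%) and 0 lower. In PL8177 against placebo 0 genes passed in either direction (0%), with 16 at an unadjusted p below 0.05 in edgeR and 0 in DESeq2.

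The 2 genes were Malrd1, an intestinal gene linked to bile acid balance, and CYTB, the mitochondrially encoded cytochrome b. Malrd1 had 0 UMIs in the crypt-like nuclei of all sham rats. It had 224, 46 and 73 UMIs in GR22, GR23 and GR24 (15.2, 16.7 and 10.3 per 10000) and 13, 45 and 4 UMIs in GR41, GR43 and GR44 (17.8, 9.73 and 11.8 per 10000). Every placebo and PL8177 rat was thus above every sham rat. Against 3 counts over the sham nuclei, Malrd1 was at least 38.6-fold higher in placebo (adjusted p = 6.46e-10, edgeR) and at least 30.0-fold higher in PL8177 (adjusted p = 1.06e-07).

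The sham value of Malrd1 was that of GR12. In surface-like nuclei Malrd1 was at 0.0357 per 10000 in GR12 but at 3.07 and 2.25 in GR13 and GR15, whose crypt-like nuclei held 257 and 2088 UMIs. Surface-like nuclei of placebo rats had 7.96, 9.77 and 5.12, and those of PL8177 rats 9.13, 4.28 and 2.35. Without GR12 Malrd1 did not pass in either comparison, and in surface-like nuclei GR13 lay above GR44.

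CYTB was at 0.871, 0 and 0 UMIs per 10000 in crypt-like nuclei of GR12, GR13 and GR15. In placebo rats it was at 40.5, 1.46 and 28.6 and in PL8177 rats at 35.6, 47.1 and 23.6. GR23 thus lay near the sham rats and apart from GR22 and GR24. The log2 fold change was -4.96 (SE 0.968, adjusted p = 1.04e-04) for sham against placebo and 5.47 (SE 0.982, adjusted p = 8.90e-06) for PL8177 against sham. CYTB was not called with DESeq2 (adjusted p = 0.337 and 0.136), with no count filter (edgeR, 0.347 and 0.344) or after thinning (0.175 and 0.151) in either comparison, and for sham against placebo not without GR12 (0.181). The same split of rats stood in surface-like nuclei, where sham rats had 1.94, 6.56 and 3.70, placebo rats 93.5, 5.10 and 97.1, and PL8177 rats 36.7, 51.5 and 70.7. CYTB is transcribed in mitochondria, so that its UMIs are not of nuclear transcripts.

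**Figure D5:**
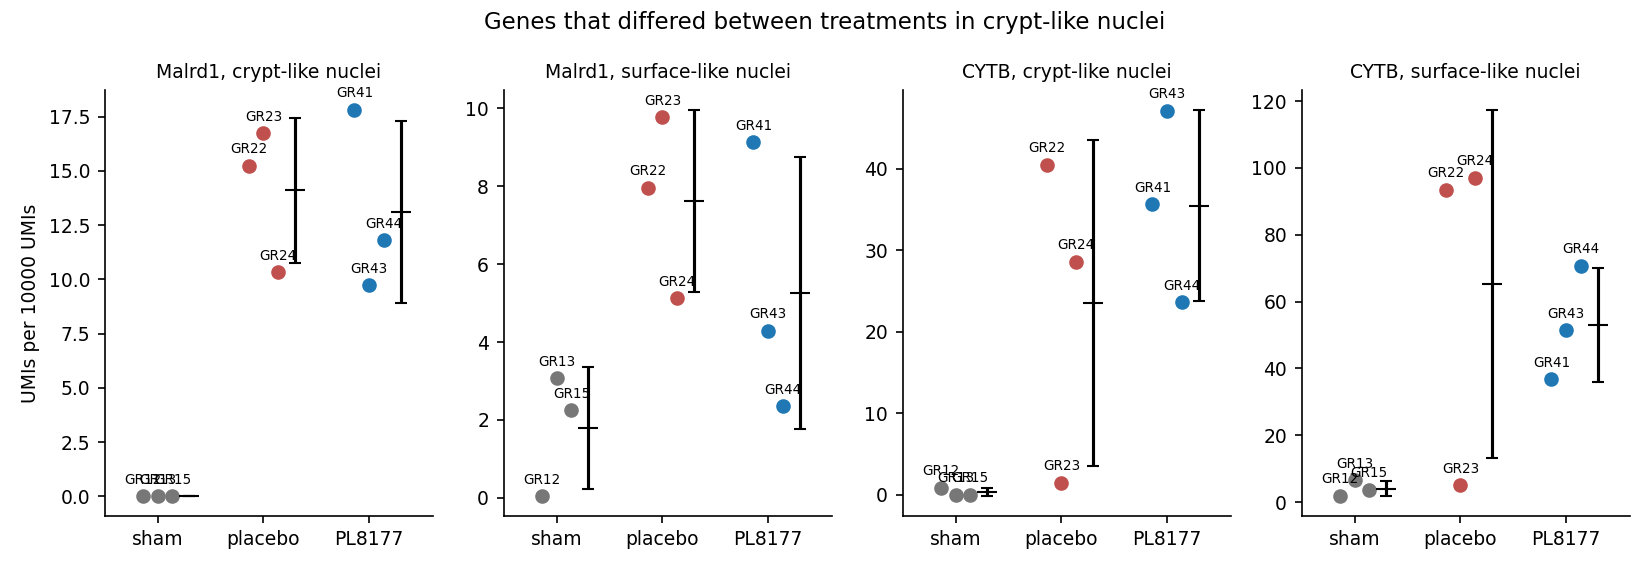
Malrd1 and CYTB in UMIs per 10000 UMIs (y axes) in crypt-like and surface-like nuclei by treatment. Points are rats and bars are the mean ± SD of 3 rats. Malrd1 was at 0 in the crypt-like nuclei of all sham rats and between 9.73 and 17.8 in the others, and CYTB in GR23 was at 1.46 in crypt-like and 5.10 in surface-like nuclei.

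Genes that follow did not pass the test and are given as values. Among 834 genes with at least 100 UMIs in crypt-like nuclei, the sham rats lay all above the placebo rats for 11 (1.32%) and all below for 85 (10.2%). PL8177 rats lay all above placebo rats for 33 (3.96%) and all below for 59 (7.07%), against 0.306% and 0% of genes called. GR13, GR15 and GR44 held 257, 2088 and 3386 crypt-like UMIs, a depth at which many genes can read 0. Lying all below placebo was thus easier to meet than lying all above, and these counts support no direction. Ano1 had the smallest p of the former kind (log2 fold change 1.11 for sham against placebo, edgeR adjusted p = 0.997), and Prpf38b of those lower in sham (-1.29, edgeR adjusted p = 0.882). For PL8177 against placebo these were Pygb, a glycogen phosphorylase (1.13), and Nr1h4, the bile acid receptor (-1.54), each at an edgeR adjusted p of 0.999. Nr1h4 was at 4.90, 3.64 and 4.39 per 10000 in the placebo rats and 2.74, 1.51 and 0 in the PL8177 rats, the last on the 3386 UMIs of GR44.

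The gene lists held few members among these 653 genes, and none passed. Of 10 mature colonocyte genes tested, the median log2 fold change from placebo was -0.012 under sham and 0.19 under PL8177, where the medians of all genes were -0.13 and -0.04. Of 7 chloride secretion genes the medians were -0.07 and 0.06. No interferon, TNF, regeneration or Notch gene was abundant enough to test.

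A change particular to crypt-like nuclei needs a difference from that in surface-like nuclei. The interaction of class and treatment was called for 0 of 5906 genes for sham against placebo and for 0 of 5906 for PL8177 against placebo (0% each), with 253 and 267 at an unadjusted p below 0.05 in edgeR and 0 called in DESeq2. The leading genes were Bbs9 (-3.29, edgeR adjusted p = 0.983) in the former and Smchd1 (-4.09, edgeR adjusted p = 0.827) in the latter. For sham against placebo single genes passed under alternatives, namely B4galnt3 (-2.60) with relative log expression factors, and Gpx2 after thinning (-6.04) and without GR12 (-4.45). Neither gene passed in the fit as stated.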

How the data were processed

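Nuclei of flash-frozen colon were profiled with 10x 3′ v3.1 chemistry. The deposited tables hold whole UMI counts per gene and nucleus, which the authors made with Cell Ranger 6.0.1 (Rnor 6.0, introns included) and CellBender, then filtered in Seurat 4.0.3. Their filters asked for 3 cells per gene, 200 genes per nucleus, and a mitochondrial share under 5%. The 3 enterocyte tables held 8782 nuclei and 17388 genes. The placebo T cell table was read for 15108 complete gene rows, which include all 18 rule genes. Members, gene lists and tests were chosen with earlier results of these data known.

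Rats are the replicates, and n counts rats. Counts were summed per rat and class and tested with edgeR 4.0.16 (TMM, filterByExpr, glmQLFit, glmQLFTest, Benjamini-Hochberg over all genes tested, called at adjusted p below 0.05 and a log2 fold change beyond 0.5). Class fits used rat as a block and left out the 18 rule genes. Treatment fits used 9 rats without a block. Shares were compared by exact permutation over rats. Alternatives were DESeq2 1.42.0, other normalization (RLE, relative log expression), filters, rule thresholds, thinning to 500 UMIs and leaving out each rat. Fits were tested on simulated counts. Levels are UMIs per 10000 UMIs of the class. The SE of an edgeR log2 fold change was derived from the test, as its absolute value over the square root of the quasi-likelihood F statistic.

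Named genes were, per class comparison and direction, the 12 with the largest change among called genes with at least 200 UMIs and the same sign in every rat, and per treatment comparison the 10 with the smallest p, filled up with uncalled genes of at least 100 UMIs whose groups did not overlap. Interactions were named by smallest p, 5 per direction. List members that were called or highest in level were eligible, and clone and locus names were left out. Enterocyte depth per rat ran from 437 to 2331 median UMIs. Scrublet called 48 nuclei (0.490%) doublets, which was treated as a failed call, and none was crypt-like. Of 9790 barcodes, 10 occurred in more than 1 rat, 1 of them in a crypt-like nucleus. Intervals cover counting error only.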

Additional observations from a re-analysis of the deposited data

How the results depend on the processing

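The mean share over sham rats was below that over placebo rats in every alternative, though pooled over nuclei, without Cftr and after thinning, it was 0.743% under sham and 0.486% under placebo. The difference was -3.01 points after thinning, -3.04 for a crypt sum of 3 or more (exact permutation p = 0.2), -8.06 without the surface condition (p = 0.3), -0.563 without Cftr and -0.00263 without Cftr after thinning, and ran from -6.42 to -4.16 with each rat left out. For PL8177 against placebo it was -2.55, -3.45, -7.85 (exact permutation p = 0.3), -0.886 and -0.0649 in the same alternatives, -6.59 in nuclei with at least 500 genes, and -5.95 to -4.78 with each rat left out. PL8177 against sham turned to 0.463 points after thinning, 0.206 without the surface condition, 1.22 without GR12, 0.133 without GR41 and 0.206 without GR44, with a range of -1.03 to 1.22 over rats left out.

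In crypt-like nuclei, sham against placebo gave 1 call with DESeq2 and 1 with no count filter (Malrd1), 1 without Cftr in the rule (CYTB), 0 after thinning, 9 without the surface condition, and 0 to 2 with each rat left out, 0 being without GR12. PL8177 against sham gave 1 (Malrd1, DESeq2), 0 (no filter), 0 (thinned), 1 (CYTB, without Cftr), and 1 to 2 with rats left out. In the 5 rats with at least 20 crypt-like nuclei, where sham and PL8177 are 1 rat each and assumed to vary like the placebo rats, sham against placebo also called Dipk1a (2.25). The sham interaction gave 1 call with RLE (B4galnt3), 1 after thinning and 1 without GR12 (Gpx2 in both), and 0 to 1 over rats left out.

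Crypt-like against surface-like nuclei gave 784 calls after thinning (2199 genes tested), 1886 without Cftr in the rule, and 2304 to 3203 with rats left out. Crypt-like against cycling nuclei gave 753 with DESeq2, 7 after thinning (95 genes tested) and 881 to 1337 with rats left out. Without the replicate block for rat these comparisons gave 1533 and 997 calls. No paired analysis between treatments was possible because the labels give 1 enterocyte sample per treatment and no rat tag occurs in more than 1 treatment. The cause of these changes was not tested beyond the smaller number of genes or rats each setting leaves.

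The difference of a list's median from that of all genes turned for the Wnt and crypt base list against surface-like nuclei (-0.23 for a crypt sum of 3 or more, -0.90 without the block, -0.32 without GR15, -0.38 without GR43 to 0.27 over rats left out, -0.30 in the 5 rats with either normalization, -0.23 without Cftr), Notch (-0.047, thinned), goblet genes (-0.16 without GR23 to 0.38 over rats left out, -0.14 without Cftr) and the cAMP list (-0.33, no filter). Against cycling nuclei it turned for Wnt (0.23), cell cycle (-0.96) and cAMP genes (-0.092) with no filter, Notch (-0.057 without GR22, to 0.38 over rats left out) and chloride secretion (0.34, thinned).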
